A study of Mus musculus with 5 samples.

Results

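Endothelial cells line every blood vessel, and their identity genes were followed here in RNA from macrophages sorted out of mouse aorta. The group held 60 listed endothelial and arterial marker genes of the 41388 genes in the deposited tables, and all 60 were matched to 1 Ensembl gene each by symbol. The 3 adventitia libraries, from the outer layer of the vessel, came from ApoE-/- mice of strain C57BL/6, which lack apolipoprotein E, kept on high fat diet for 28 weeks (n = 6 in the study's design text). Their cells were sorted as live CD64+ cells after the layer was stripped from the whole aorta. The 2 intima libraries, from the inner lining, came from C57BL/6 mice with 5 mice pooled in each, and no genotype or diet is stated for them. Those cells were sorted as live CD64+ CD11c+ MHC II+ cells from the thoracic aorta after the adventitia had been pulled off. Both gates thus selected for CD64, a macrophage Fc receptor, and the labels name no endothelial marker in either. The labels give no ages, and they do not say how the 6 ApoE-/- mice were shared among the adventitia libraries, so a p-value here measures only how these libraries vary, which may be technical. Layer, aortic segment and gate differed between the groups together with any difference in genotype and diet, which are stated for the adventitia mice alone, and cannot be told apart.

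Vascular endothelium is held together by adhesion proteins such as VE-cadherin and PECAM-1, senses growth factors through the VEGF and angiopoietin receptors, and is specified by transcription factors of the ETS and SOX families. Arterial endothelium is known for Notch signalling, for ephrin B2 and for connexins that couple neighbouring cells, while activated endothelium displays selectins and adhesion molecules that catch leukocytes. Several of these genes are also used by leukocytes: 11 of the 60, among them Pecam1, Fli1, Klf2, Vcam1 and S1pr1, were set apart for that reason.

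The libraries held 3941381 to 10076142 counted reads in the adventitia and 14970204 and 20806925 in the intima. Reads fell on 23289 to 25738 genes in the adventitia and on 17489 and 16374 genes in the deeper intima libraries. Mitochondrial genes took 3.27 to 6.15% of adventitia reads and 2.30 and 1.38% of intima reads, and their part in the results was not tested. Macrophage identity was shared: all 14 macrophage markers, from Fcgr1, which encodes CD64, to Ptprc, stood at 10 CPM or more in both intima libraries, and their summed level was 31936 and 21924 CPM in the intima and 21965, 24199 and 32127 CPM in the adventitia. CPM are the usual depth-scaled read counts, here after scaling by edgeR's trimmed mean of M values (TMM). In bulk RNA, fewer cells of a type and less RNA per cell cannot be told apart. A floor of 3 reads, under which a level is not read as a difference, is worth 0.761 CPM where reads were fewest and 0.144 CPM where they were most numerous, for counting error only.

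Most endothelial genes were higher in the intima libraries, and a smaller number were almost missing there. Their summed level was 6209.8 and 4833 CPM in the intima and 1241, 1384 and 1298 CPM in the adventitia. Single genes weighed heavily in these sums. Tm4sf1 alone gave 1645 and 1270 CPM in the intima, and Fli1 608, 555 and 607 CPM in the adventitia. Without the 11 genes set apart as used by leukocytes, the sums were 4263 and 3164 CPM against 206, 329.6 and 303 CPM. The 49 genes left still include Tal1, Vwf, Selp and Mmrn1, which other blood cells or their precursors also use. Those sums are therefore not levels of endothelium alone. In the intima, 38 and 39 of the 60 genes reached 10 CPM in replicates 1 and 2, compared with 11, 11 and 12 in the adventitia libraries. Of the 54 genes with enough reads to be tested, 12 rose and none fell at an adjusted p under 0.05 in edgeR's quasi-likelihood test, which called 0.522% of all 13408 tested genes higher and 0.149% lower. At an unadjusted p under 0.05, 29 of the 54 were higher and 1 was lower in edgeR, beside 1094 higher and 1916 lower of all 13408 tested genes, and neither DESeq2 nor limma voom called any of them lower. The fitted log2 difference, always given as intima minus adventitia, had a median of 3.14 over the 54 genes and 0.14 over all tested genes. Group ranges of CPM were separate for 33 of the 54, with 31 higher and 2 lower in the intima. Over all tested genes 17.8% were higher and 23.2% lower without overlap. The 6 genes with too few reads were Cldn5, Robo4, Cyyr1, Adgrl4, Dll4 and Hey1. Of these, Robo4, Adgrl4, Dll4 and Hey1 were lower in the intima without overlap, so over all 60 genes 31 were higher and 6 lower. The read filter can pass a gene on the intima libraries alone and drops genes low in both groups. The counts and the median over the 54 genes are therefore shaped by that filter.

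**Figure D1:**
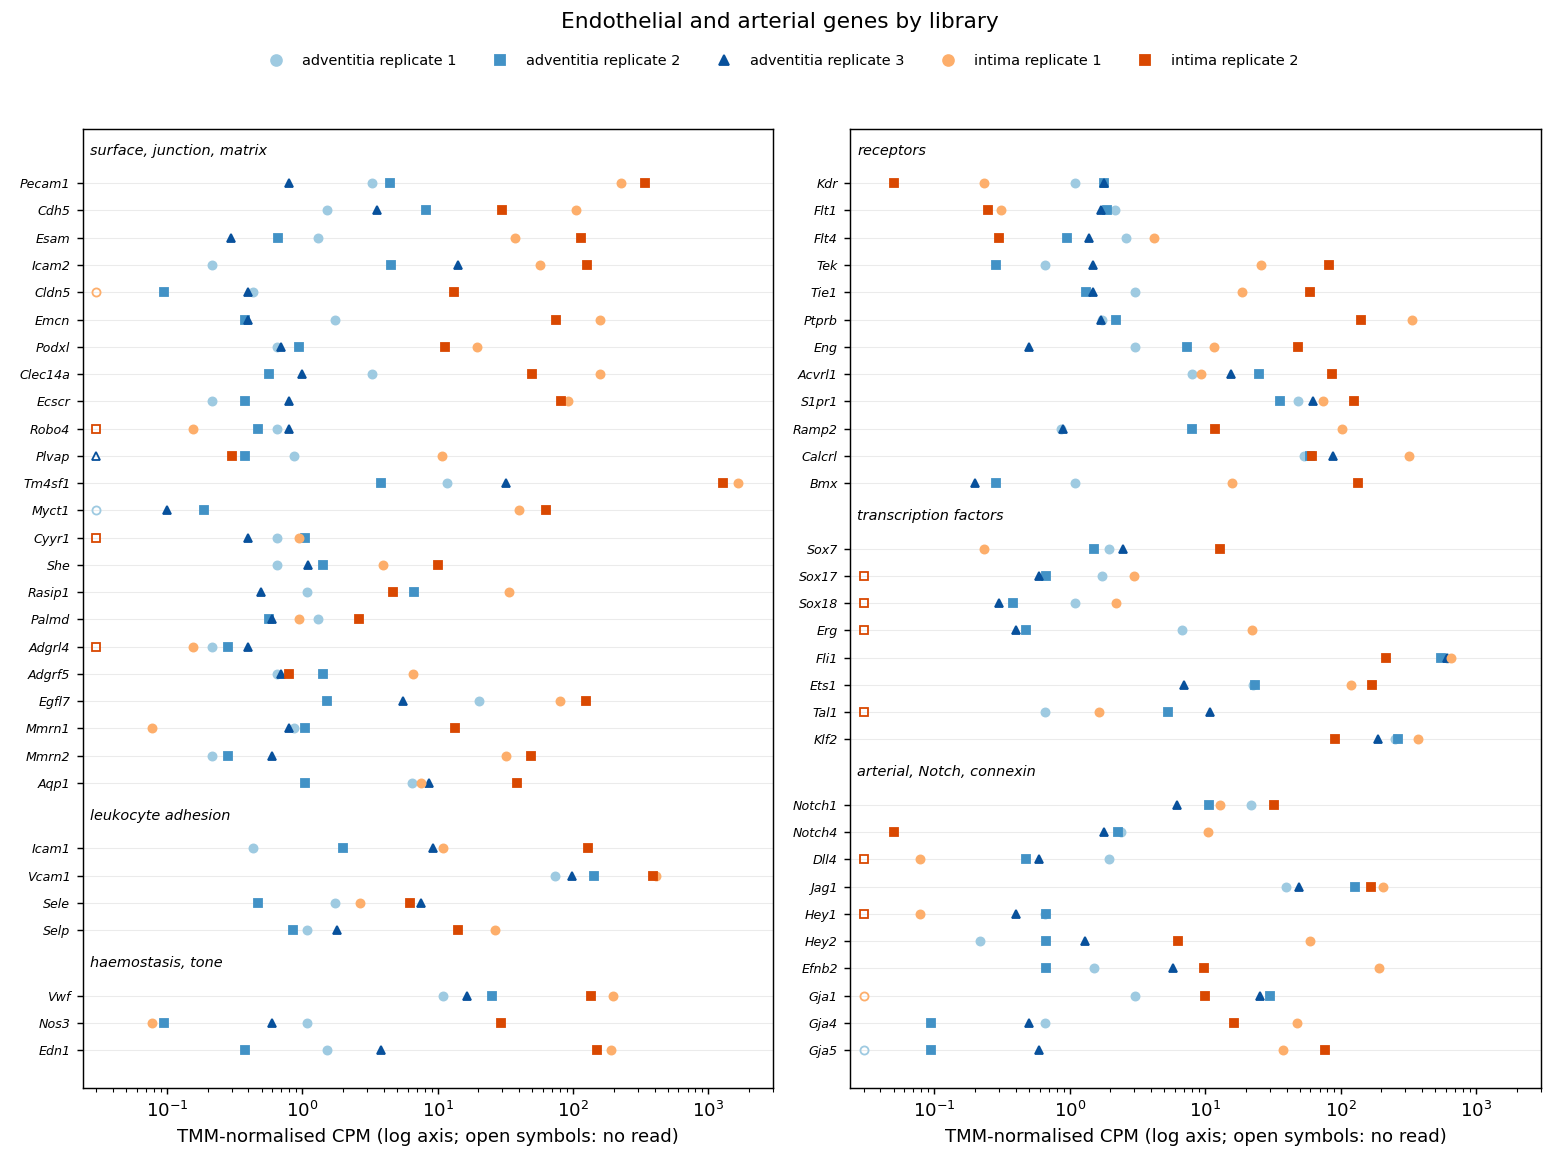
Level of each of the 60 endothelial genes in each library, as TMM-normalised CPM on a log axis, grouped by role; blue symbols are the 3 adventitia libraries, orange symbols the 2 intima libraries, and open symbols at the left edge have no read. Pecam1, Emcn, Ecscr, Tm4sf1, Edn1 and Ptprb show both intima libraries well to the right of all adventitia libraries, whereas Kdr, Flt1, Dll4 and Hey1 lie to their left.

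Surface, junction and matrix genes gave the largest number of calls. Of 23 such genes 19 were tested, 7 rose and 12 did not pass, with a median log2 difference of 3.91. The share called higher was 36.8%, beside 0.522% of all tested genes. Pecam1, an adhesion receptor of endothelial junctions that platelets and leukocytes also carry, was at 3.26, 4.45 and 0.797 CPM in adventitia replicates 1, 2 and 3 and at 226 and 340.1 CPM in intima replicates 1 and 2. The lower intima library was thus far above the highest adventitia library, and the log2 difference was 6.64 (SE 0.75, n = 3 and 2, edgeR adjusted p = 0.00220). Pecam1 lies on chromosome 11 from 106654217 to 106750628 in GRCm38. Tm4sf1, a small membrane protein abundant in endothelium, was the most abundant of all 60 genes per length in the intima. Its levels were 11.7, 3.79 and 31.7 CPM in adventitia libraries against 1645 and 1270.0 CPM in intima libraries, with no overlap and a log2 difference of 6.53 (SE 0.78, edgeR adjusted p = 0.00314). It lies on chromosome 3 from 57285611 to 57301919.

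Endomucin and several angiogenic surface proteins rose with them. Emcn, a sialomucin of endothelial membranes, had 8, 4 and 4 reads in the adventitia libraries and 2007 and 1493 in the intima, or 1.74, 0.379 and 0.399 against 157 and 74.9 CPM. Its log2 difference was 7.21 (SE 0.98, edgeR adjusted p = 0.00694). Ecscr, a surface regulator of endothelial migration, had adventitia levels of 0.217, 0.379 and 0.797 CPM and nearly equal levels of 92.1 and 81.0 CPM in the intima libraries. The difference of 7.44 (SE 0.98) had an adjusted p of 0.00608 in edgeR, and its exons share bases with a gene on the other strand. Esam, a junction protein, stood at 1.30, 0.663 and 0.299 CPM against 37.4 and 114 CPM (log2 difference 6.69, SE 1.10, edgeR adjusted p = 0.0191). Clec14a, a lectin of growing vessels, was at 3.26, 0.568 and 0.996 CPM against 157 and 49.9 CPM (log2 difference 6.06, SE 1.01, edgeR adjusted p = 0.0203). Myct1, a small endothelial membrane protein, had 0, 2 and 1 reads in the adventitia and 507 and 1261 in the intima, a pooled ratio of 454 with a 95% counting interval from 155 to 2203 (edgeR adjusted p = 0.0177). All of these genes had both intima libraries above every adventitia library.

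Cdh5 did not pass, although it encodes VE-cadherin, the defining adhesion molecule of endothelial junctions. Its levels were 1.52, 8.15 and 3.59 CPM in adventitia libraries against 105 and 29.6 CPM in intima libraries, so that the ranges did not overlap, with a log2 difference of 3.91 (SE 1.03, edgeR adjusted p = 0.0900). Mmrn2, an endothelial matrix protein, was close to the threshold at 0.217, 0.284 and 0.598 against 31.7 and 48.8 CPM (6.70, SE 1.37, edgeR adjusted p = 0.0588). Icam2, Egfl7, Podxl and She likewise had no overlap between groups and log2 differences from 2.70 for She to 4.31 for Podxl, none of which passed. Egfl7 is an endothelial matrix factor whose exons share bases with Agpat2 and with the gene of the microRNA it hosts. The tight junction gene Cldn5 had no read in intima replicate 1 and 261 in replicate 2. Plvap, the protein of fenestral diaphragms, went the other way with 138 and 6 reads. Rasip1, Palmd, Adgrf5, Aqp1 and Mmrn1 had overlapping groups, and their log2 differences ran from 1.13 to 2.89, that of Mmrn1 being -3.25 without intima replicate 2. Robo4, Adgrl4 and Cyyr1 had at most 12 reads in any library of either group.

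Receptor genes, with the kinase Bmx listed among them, gave 2 calls. Of these 12 genes, all tested, 2 rose, none fell and 10 did not pass. The share called higher was 16.7%, beside 0.522% of all tested genes. Ptprb, the phosphatase VE-PTP that restrains TIE2 and VE-cadherin, had the smallest adjusted p of the 60 genes. Its levels were 1.74, 2.18 and 1.69 CPM in adventitia libraries against 336 and 142 CPM in intima libraries, a log2 difference of 6.98 (SE 0.66, edgeR adjusted p = 6.14e-04), on chromosome 10 from 116301374 to 116389538. Bmx, a cytoplasmic kinase known from arterial endothelium, was at 1.09, 0.284 and 0.199 CPM against 15.7 and 135 CPM (7.28, SE 1.31, edgeR adjusted p = 0.0328). The angiopoietin receptor Tek, or TIE2, was at 0.651, 0.284 and 1.49 CPM in adventitia libraries against 25.8 and 82.6 CPM in intima libraries (6.03, SE 1.25, edgeR adjusted p = 0.0642). Its relative Tie1 was at 3.04, 1.33 and 1.49 CPM against 18.6 and 59.0 CPM (4.32, SE 1.25, edgeR adjusted p = 0.107). In both, the intima libraries lay above all adventitia libraries, and intima replicate 2 was 3.20- and 3.17-fold above replicate 1.

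The VEGF receptors Kdr and Flt1 showed the opposite arrangement. Kdr, which encodes VEGFR2, the main VEGF receptor of endothelium, had 5, 19 and 18 reads in the adventitia and 3 and 1 in the intima libraries. That is 1.09, 1.80 and 1.79 CPM against 0.235 and 0.0502 CPM, with no overlap, a log2 difference of -3.43 (SE 1.34) and an adjusted p of 0.162 in edgeR. Flt1, the decoy receptor VEGFR1 that monocytes also carry, had 10, 20 and 17 reads against 4 and 5 (-2.73, SE 1.30, edgeR adjusted p = 0.241). Neither passed, and the adventitia levels of these genes were themselves no more than 2.17 CPM. Flt4, the receptor for lymphatic VEGF, had 54 and 6 reads in the intima and overlapped the adventitia.

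The other receptors had higher but less separate levels. Eng, a TGF-beta co-receptor, was at 3.04, 7.29 and 0.498 CPM against 11.7 and 48.2 CPM, and its partner Acvrl1 was at 8.03, 25.1 and 15.6 CPM against 9.39 and 86.0 CPM, with intima replicate 1 inside the adventitia range. S1pr1, a lipid receptor also used by lymphocytes, was at 48.6, 36.0 and 62.3 CPM against 73.8 and 126 CPM. Calcrl and Ramp2 form the adrenomedullin receptor. Calcrl was at 53.4, 59.5 and 88.3 CPM in adventitia libraries against 319 and 61.3 CPM in intima libraries, and Ramp2 at 0.868, 8.05 and 0.897 against 103 and 11.9 CPM. The exons of Ramp2 share bases with Vps25 on the same strand. For all 5 the adjusted p was above 0.05 in edgeR, from 0.116 for Ramp2 to 0.417 for Acvrl1.

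Vessel tone and haemostasis genes included 2 that rose of 3 tested, beside 0.522% of all tested genes. Edn1, which encodes the vasoconstrictor endothelin 1, was at 1.52, 0.379 and 3.79 CPM in adventitia libraries against 191 and 149.8 CPM in intima libraries, with a log2 difference of 6.47 (SE 0.90, edgeR adjusted p = 0.00742). It lies on chromosome 13 from 42301270 to 42307989, and its exons share bases with a gene on the other strand. Vwf, the platelet-binding protein stored in endothelial granules, had the highest mean adventitia level of the called genes. Its levels were 10.9, 25.2 and 16.5 CPM against 196 and 135 CPM (3.23, SE 0.59, edgeR adjusted p = 0.0344). Nos3, the endothelial nitric oxide synthase, had 5, 1 and 6 reads in the adventitia and 1 and 585 in the intima. Nearly all of its reads therefore came from 1 intima library, and it did not pass (4.65, SE 2.15, edgeR adjusted p = 0.228). The exons of Nos3 share bases with Atg9b and Gm15587 on the other strand. Vwf, Selp and Pecam1 are also known from megakaryocytes and platelets. The summed level of 10 platelet and megakaryocyte markers was 1972 and 599.8 CPM in the intima and 2169, 2095 and 2611 CPM in the adventitia, none of the 6 tested passed, and Gp1ba had no read in the intima. Pf4, which tissue macrophages also express, was the most abundant of them in every library. It stood at 1971 and 289 CPM in the intima and 2160, 2080 and 2585 CPM in the adventitia. Pf4 thus made up most of every sum but that of intima replicate 2. Of the 6 tested markers 5 had a fitted difference above 0, with a median of 2.92. In intima replicates 1 and 2, Ppbp had 3 and 4812 reads, Itga2b 0 and 433 and Gp9 0 and 380. Treml1 had 1 and 242, Gp6 0 and 150 and Gp1bb 1 and 1. Their part in the Vwf, Selp and Pecam1 levels was not tested.

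Leukocyte adhesion genes gave no call among 4 tested. Vcam1, the integrin ligand of activated endothelium that macrophages also express, was at 73.2, 142 and 98.7 CPM in adventitia libraries against 407 and 389 CPM in intima libraries, with no overlap (log2 difference 1.92, SE 0.44, edgeR adjusted p = 0.0868). Icam1 was at 0.434, 1.99 and 9.27 CPM against 11.0 and 128 CPM (4.13, SE 1.32, edgeR adjusted p = 0.114). P-selectin, Selp, was at 1.09, 0.853 and 1.79 CPM against 26.4 and 14.1 CPM, again without overlap and without passing (edgeR adjusted p = 0.150). E-selectin, Sele, which is made on cytokine stimulation, overlapped at 1.74, 0.474 and 7.57 CPM against 2.66 and 6.27 CPM.

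Transcription factors had the smallest median difference of the roles. None of the 8 tested passed, and the median log2 difference was 0.76. Fli1, an ETS factor shared by blood and endothelial cells, was at 608, 555 and 607 CPM in adventitia libraries against 652 and 217 CPM in intima libraries (-0.45, SE 0.49, edgeR adjusted p = 0.660), so intima replicate 1 was just above the adventitia libraries and replicate 2 below them. Klf2, a flow-responsive factor also present in leukocytes, likewise had the adventitia libraries between the intima libraries, at 252, 267 and 189 CPM against 375 and 91.0 CPM (-0.02, SE 0.56, edgeR adjusted p = 0.990). Ets1 was the factor whose groups did not overlap, at 22.6, 23.3 and 6.97 CPM against 119 and 172 CPM (3.04, SE 0.66, edgeR adjusted p = 0.0768). Erg, the ETS factor most specific to endothelium, had 31, 5 and 4 reads in the adventitia and 286 and 0 in the intima. The endothelial SOX factors were uneven too, with 38 and 0 reads for Sox17, 28 and 0 for Sox18 and 3 and 256 for Sox7 in intima replicates 1 and 2. The sign of the Erg difference rested on 1 library, being -7.85 without intima replicate 1, as did those of Fli1 and Klf2, at 0.23 and 0.76 without intima replicate 2. Tal1, a factor of blood and endothelial precursors, had 21 and 0 reads there and 3, 56 and 109 in the adventitia.

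Because ETS factors bind near many endothelial genes, the 250 bases before each start site were searched for an ETS-like motif, CNGGAAG on either strand. RefSeq windows of build GRCm38.p6 were matched for 38 of the 60 genes, in 44 windows. The motif was in 45.5% of these windows and in 26.6% of all 32851 windows of the same length. For the other motifs the shares in endothelial and all windows were 11.4% and 10.7% for the SOX-like ACAATG, 9.09% and 9.99% for the GATA-like AGATAA, and 6.82% and 5.42% for the RBPJ-like GTGGGAA. A match is a description of letters and not a bound site. As examples picked because they hold a match, windows of 2 genes that rose and 2 nearly absent from the intima are printed. They run from 5′ to 3′, each ending at the base before its start site, with the motif or its reverse complement in capitals. Myct1 (chromosome 10, 5593478 to 5593727, plus strand) and Clec14a (chromosome 12, 58269259 to 58269508, minus strand) rose. Flt1 (chromosome 5, 147726012 to 147726261, minus strand) and Dll4 (chromosome 2, 119325534 to 119325783, plus strand) were nearly absent, and at most 2.17 CPM in the adventitia.
Myct1: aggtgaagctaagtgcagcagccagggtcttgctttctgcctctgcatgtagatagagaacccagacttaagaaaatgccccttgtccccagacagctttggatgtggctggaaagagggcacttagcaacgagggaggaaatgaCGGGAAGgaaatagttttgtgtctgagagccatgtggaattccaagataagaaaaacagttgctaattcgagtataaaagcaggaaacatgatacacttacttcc
Clec14a: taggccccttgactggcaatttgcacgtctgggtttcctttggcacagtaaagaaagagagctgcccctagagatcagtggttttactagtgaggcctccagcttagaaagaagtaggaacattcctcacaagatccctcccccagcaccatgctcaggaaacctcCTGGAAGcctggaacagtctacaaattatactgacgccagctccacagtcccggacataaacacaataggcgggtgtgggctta
Flt1: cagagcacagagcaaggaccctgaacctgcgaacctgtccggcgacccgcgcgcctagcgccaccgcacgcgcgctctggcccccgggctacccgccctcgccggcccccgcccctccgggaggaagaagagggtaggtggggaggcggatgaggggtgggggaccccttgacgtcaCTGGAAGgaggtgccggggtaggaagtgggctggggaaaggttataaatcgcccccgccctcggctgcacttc
Dll4: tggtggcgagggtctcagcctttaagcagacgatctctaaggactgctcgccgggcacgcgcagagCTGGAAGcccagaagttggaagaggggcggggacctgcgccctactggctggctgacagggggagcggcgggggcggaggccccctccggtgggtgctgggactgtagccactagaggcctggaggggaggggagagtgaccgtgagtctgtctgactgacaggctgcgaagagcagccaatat
Each printed window held 1 such match, and no motif holds another. Among the 7 windows of genes that rose, 3 held one, and the windows of Tm4sf1, Edn1, Gja5 and Bmx did not. Among the 6 windows of genes under 1 CPM in both intima libraries, 5 held one, and that of Kdr did not.

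The arterial, Notch and connexin genes gave 1 call. Of 10 genes 8 were tested, 1 rose and 7 did not pass, with a median log2 difference of 3.30. The share called higher was 12.5%, beside 0.522% of all tested genes. Over all 10, 5 had both intima libraries above the adventitia range, 2 below it and 3 overlapped. Over all tested genes 17.8% were higher and 23.2% lower without overlap. The 2 below were Dll4 and Hey1, which had too few reads to be tested. Gja5, which encodes the arterial connexin 40, rose from 0, 1 and 6 reads in the adventitia to 483 and 1525 in the intima. Its levels of 37.8 and 76.5 CPM in intima libraries gave a log2 difference of 7.75 (SE 1.43, edgeR adjusted p = 0.0344), and the gene lies on chromosome 3 from 97032416 to 97053634. Gja4, connexin 37, had 3, 1 and 5 reads against 611 and 324 (6.28, SE 1.56, edgeR adjusted p = 0.0868). Gja1, connexin 43, which smooth muscle and fibroblasts also make, had 14, 317 and 257 reads in the adventitia and 0 and 199 in the intima, with overlapping groups (-1.97, SE 1.93, edgeR adjusted p = 0.611). Efnb2, the arterial ephrin, was at 1.52, 0.663 and 5.78 CPM against 194 and 9.83 CPM (5.24, SE 1.26, edgeR adjusted p = 0.0868). Both intima libraries were above the adventitia, but replicate 1 exceeded replicate 2 by 19.7-fold.

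Among Notch ligands, and among Notch target genes, the intima held a gene above and a gene below the adventitia range. Jag1, a Notch ligand of arterial and smooth muscle cells, was at 39.7, 129 and 49.4 CPM in adventitia libraries against 207 and 167 CPM in intima libraries, above but close to the highest adventitia library (1.36, SE 0.58, edgeR adjusted p = 0.192). The endothelial ligand Dll4 had 9, 5 and 6 reads in the adventitia and 1 and 0 in the intima. Pooled over each group, Dll4 was lower in the intima by a ratio of 26.0, with a 95% counting interval from 4.15 to 1076. Of the Notch target genes, Hey1 had 3, 7 and 4 reads against 1 and 0, a ratio of 18.2 toward the adventitia with an interval from 2.77 to 769. Hey2, its arterial relative, was instead at 0.217, 0.663 and 1.30 CPM against 59.4 and 6.27 CPM, without overlap (5.44, SE 1.56, edgeR adjusted p = 0.106). Dll4 and Hey1 were below the read filter. With no filter beyond 1 read, the median log2 difference of all genes was itself -1.86, so their ratios are not read as particular to them. The receptor Notch1 overlapped at 21.7, 10.6 and 6.18 CPM against 12.9 and 32.2 CPM (0.81, SE 1.17, edgeR adjusted p = 0.750). Notch4, the endothelial receptor, had 11, 24 and 18 reads in the adventitia and 135 and 1 in the intima (1.29, SE 1.81, edgeR adjusted p = 0.741), and its difference was -5.26 without intima replicate 1.

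**Figure D2:**
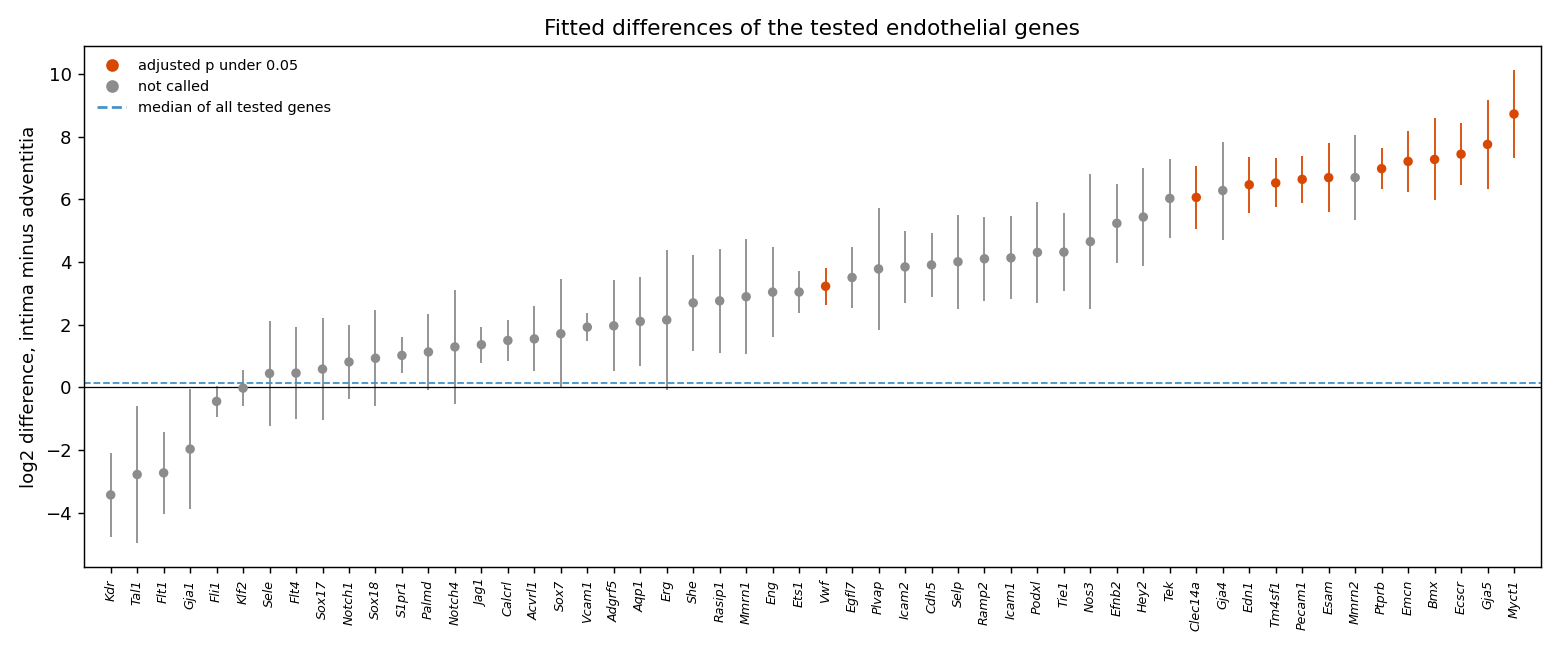
Fitted log2 difference, intima minus adventitia, with its standard error for the 54 tested endothelial genes in rising order; orange marks the 12 genes called at an adjusted p under 0.05 and the dashed line the median of all tested genes at 0.14. The differences run from -3.43 for Kdr to 8.73 for Myct1, and 48 of 54 are above 0.

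The calls depended on single libraries. Without adventitia replicate 1, the smallest library, Ptprb alone was called, beside 0.073% of all genes tested there (edgeR adjusted p = 0.0470), and the other 11 had adjusted p from 0.0501 for Emcn to 0.215 for Vwf. Tm4sf1, Emcn, Ptprb, Pecam1, Edn1 and Ecscr kept their calls without adventitia replicate 2 and without replicate 3, where 0.313% and 0.321% of all tested genes were higher, whereas Bmx, Clec14a, Esam, Gja5, Myct1 and Vwf lost them in either case. Without intima replicate 1, where 1.47% of all tested genes were called higher, 13 endothelial genes were called, and Clec14a and Vwf were lost. Without intima replicate 2, where the share was 0.618%, 12 were called, and Bmx, Esam and Gja5 were lost. DESeq2 called 27 of the 54 genes higher, against 4.04% of the genes it tested, and limma voom 18, against 1.6%. All 12 genes were in both sets, and Cdh5, Tek, Tie1, Mmrn2, Efnb2, Hey2, Gja4, Icam1, Icam2, Vcam1 and Ets1 were among those that DESeq2 added. Kdr, Flt1, Erg, Nos3, Jag1 and the Notch receptors were not called higher by any of these tools. The number called was 9 with upper-quartile scaling (0.343% of all genes), 12 with library size alone (0.44%), 16 of 44 tested with a filter of 1 CPM (1.27%), 24 of 60 with no filter (0.986%) and 11 of 44 with counts thinned to the smallest library (0.517%). The choice of scaling moved the median of all tested genes, from 0.14 with TMM to -0.35 for upper-quartile scaling and -0.09 for unscaled library sizes, and the calls among all genes from 70 higher and 20 lower to 46 and 29, and to 59 and 34. Relative to that median, the endothelial genes stood 3.00, 3.00 and 3.01 higher.

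The 2 intima libraries held most of the genes at unequal levels. Ecscr, Edn1, Jag1 and Vcam1 were the abundant genes with the smallest difference between them, at 1.14-, 1.27-, 1.24- and 1.04-fold. Over the 54 tested genes, with counts under 3 reads set to 3, the median difference between the intima libraries was 3.11-fold, and 2.35-fold over all tested genes. Levels were within 2-fold of each other for 16 of the 54 (29.6%), compared with 43.5% of all tested genes. A difference of at least 10-fold was seen for 13 of them (24.1%), compared with 22.5% of all tested genes. Of these 13, 8 were higher in replicate 1 and 5 in replicate 2. Among genes with at least 10 CPM in an intima library, 8 of 44 endothelial genes differed that much (18.2%), and 22.9% of all such genes. Across the 54 genes, which are not independent replicates, Pearson's r of log2(CPM + 1) was 0.69 between the intima libraries and 0.84 to 0.87 between pairs of adventitia libraries, and over all tested genes it was 0.72 and 0.83 to 0.88. The adventitia pairs differed at least 10-fold for 2 to 4 of the 54, and for 5.43 to 6.38% of all tested genes. None of the 12 called genes differed 10-fold between the intima libraries, but the test itself favours genes with close replicates.

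Disagreement ran in both directions and within single pathways. Erg had 286 reads in intima replicate 1 and none in replicate 2, which is at least 149-fold higher in replicate 1 against the floor of 3 reads in replicate 2. The next 3 ratios divide by the 1 read observed instead of the floor, so they cannot be ranked against the bound for Erg. Nos3 was higher in replicate 2 by a ratio of 375, with a 95% counting interval from 67.1 to 14840.0. Mmrn1, a multimerin of endothelium and platelets, had 1 and 269 reads and was higher in replicate 2 by 172 (interval 30.7 to 6837). Notch4 was higher in replicate 1 by 211 (interval 37.2 to 8377). Sox7 was mainly in replicate 2, while Sox17 and Sox18 had reads in replicate 1 and none in replicate 2. Gja1 and Cldn5, each with no read in replicate 1, were at least 42.5- and 55.8-fold higher in replicate 2. In all, 32 genes reached 10 CPM in both intima libraries, 13 in just 1 of them and 15 in neither.

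**Figure D3:**
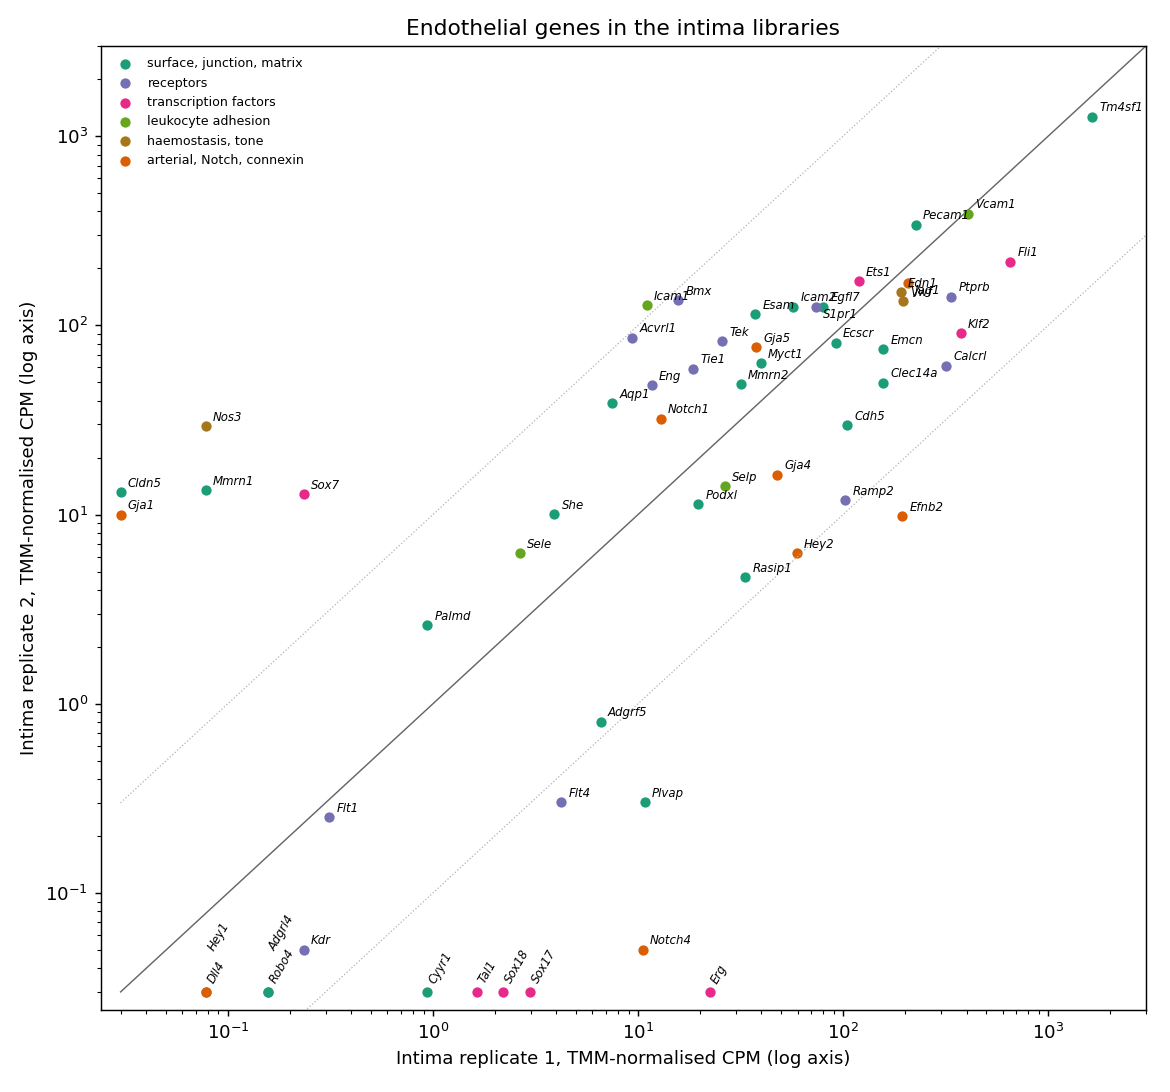
Level of each endothelial gene in intima replicate 1 (horizontal) and replicate 2 (vertical), as TMM-normalised CPM on log axes, coloured by role; the solid line marks equal levels, dotted lines a 10-fold difference, and points on the left or lower edge have no read in that library. Ecscr, Edn1 and Vcam1 lie near the line of equal levels, while Erg lies on the lower edge with Notch4 just above it, and Cldn5 and Gja1 lie on the left edge with Nos3 and Mmrn1 beside it.

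Markers that stayed nearly absent from the intima were few. In 7 of the 60 genes both intima libraries were below 1 CPM: Kdr, Flt1, Robo4, Adgrl4, Cyyr1, Dll4 and Hey1. None of the 60 was without a read in a whole group. All 7 were also low in the adventitia, with 2.17 CPM the highest value. In 6 of them every adventitia library was above both intima libraries, Cyyr1 being the exception. Over all tested genes, 23.2% were lower in the intima without overlap. That share leaves out Robo4, Adgrl4, Dll4 and Hey1, which were not tested. With no filter beyond 1 read, the median log2 difference of all genes was -1.86. Robo4, Adgrl4, Dll4 and Hey1 were under the floor of 3 reads in both intima libraries. Adgrl4 had 1 read in adventitia replicate 1, also under the floor, so its order is not read as a difference. Of the 54 tested genes, 2 such genes were lower without overlap, Kdr and Flt1. By contrast, Tek and Tie1, known as endothelial receptors too, reached 18.6 CPM or more in both intima libraries.

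Per length, the median endothelial gene stayed below the median macrophage marker. In RPKM, which also divides by transcript length, the median of the 60 genes was 4.63 and 7.57 in intima replicates 1 and 2 and 0.244 to 0.411 in the adventitia libraries. The median of the 14 macrophage markers was 156 and 261 RPKM in the intima libraries and 156 to 212 RPKM in the adventitia. Tm4sf1 led the endothelial genes in the intima with a mean of 391 RPKM, above the macrophage median in both libraries, followed by Fli1, Klf2 and Vcam1 at 109.7, 110.4 and 106 RPKM, and by Edn1 at 65.4 RPKM. Fli1 and Klf2 led in the adventitia at 182 and 138 RPKM. Ecscr, Pecam1 and Icam2 had intima means of 46.5, 41.6 and 44.5 RPKM, Ptprb and Vwf, with their long transcripts, 17.8 and 9.21 RPKM, and Cdh5 14.8 RPKM.

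Other endothelial genes showed a like split. Of 35 further genes known from endothelium 31 were tested, 6 rose and 25 did not pass, with a median log2 difference of 1.37. The share called higher was 19.4%, beside 0.522% of all tested genes, whose median was 0.14. Cav1, the caveola coat protein, was at 2.17, 0.0947 and 0.399 CPM in adventitia libraries against 356 and 291 CPM in intima libraries (edgeR adjusted p = 0.00220), and Bmp4, a growth factor of the vessel wall, at 4.56, 4.55 and 0.299 against 316 and 295 CPM (edgeR adjusted p = 0.00697). Cavin2, Heg1, Ctla2a and Tspan7 were the other 4 that rose. Nrp1, a VEGF co-receptor also made by macrophages, was the most abundant and did not differ beyond its error at 633, 459.8 and 569 against 532 and 457 CPM (-0.17, SE 0.40). Genes known from tip, capillary and arteriolar endothelium were mixed: Esm1, Apln, Aplnr and Sema3g had at most 4 reads in either intima library, whereas Angpt2 had 10 and 369, Unc5b 9 and 65, Gpihbp1 3 and 37, Fabp4 348 and 6 and Pdgfb 2700 and 1114 reads in replicates 1 and 2. Venous and lymphatic genes gave no call among 6 tested of 10. Ephb4, the venous ephrin receptor, was the 1 gene above the adventitia range in both intima libraries, at 2.17, 1.42 and 1.39 CPM against 33.4 and 16.7 CPM (log2 difference 3.91, edgeR adjusted p = 0.137). Ackr1, Ccl21a and Nts had no read in the intima, and the sums of 512 and 192 CPM in the intima and 1019.7, 773 and 791 CPM in the adventitia were mainly Lyve1 and Fgl2, which macrophages also express.

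Markers of other wall cells were measured beside these genes. Of 10 smooth muscle markers 7 were tested and 1 rose, or 14.3%, beside 0.522% of all tested genes. It was Tagln, at 0.651, 0.284 and 0.0996 CPM against 124 and 52.1 CPM (edgeR adjusted p = 0.00697). The list summed to 344 and 95.9 CPM in the intima and 52.1, 41.5 and 14.8 CPM in the adventitia, while Myh11, the defining myosin of smooth muscle, had 6 and 0 reads in the intima libraries. Acta2 stood at 170.3 and 24.5 CPM in intima replicates 1 and 2, above Tagln in the first and below it in the second. In the adventitia libraries Acta2 was at 0, 0.474 and 2.89 CPM, without overlap (log2 difference 6.35, SE 1.37, edgeR adjusted p = 0.0738). Of the 7 tested smooth muscle markers, 4 had a fitted difference above 0 and 3 below. Of 7 pericyte markers 5 were tested and none passed, Rgs5 and Higd1b had no read in the intima, and Pdgfrb, a growth factor receptor of mural cells and fibroblasts, was at 3.69, 4.36 and 4.38 CPM against 17.9 and 20.6 CPM. Pdgfrb made up nearly all of the pericyte sums in the intima, which were 18.2 and 21.5 CPM against 21.9, 11.2 and 14.0 CPM. Of 10 fibroblast markers, all tested, 1 fell, or 10%, beside 0.149% of all tested genes called lower. It was Lum, at 73.6, 41.2 and 227 CPM in adventitia libraries against 0.391 and 0 CPM in intima libraries (edgeR adjusted p = 0.0148). The fibroblast sums were 371 and 333 CPM in the intima against 675, 652 and 1566 CPM. The part of these cell types in the endothelial levels was not tested.

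**Figure D4:**
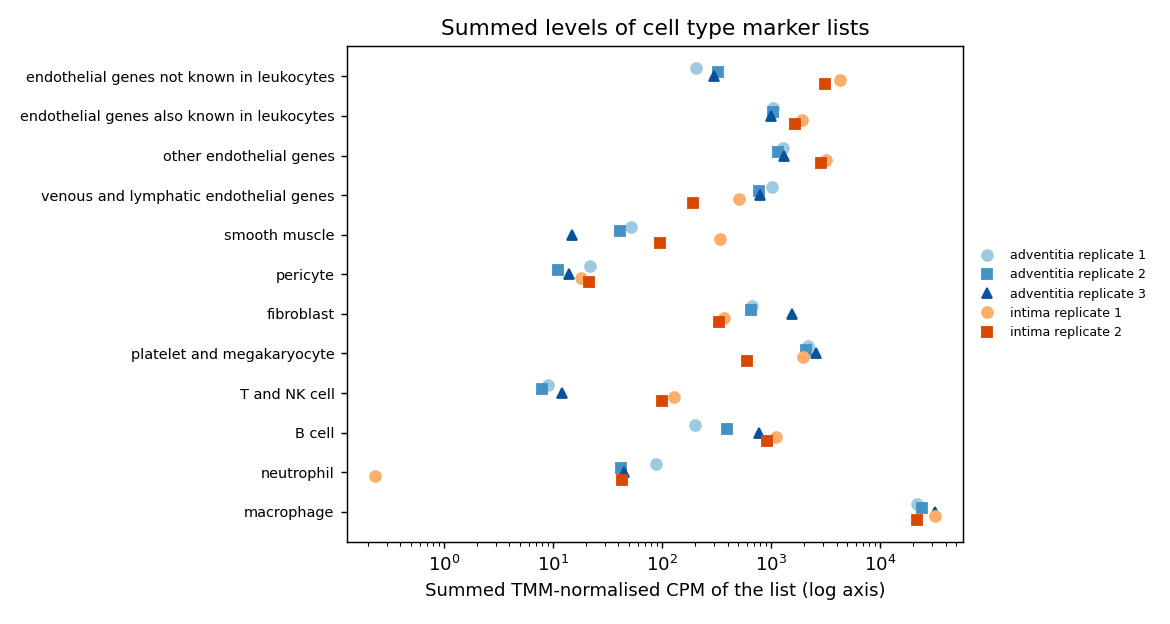
Summed TMM-normalised CPM of each marker list in each library on a log axis, with blue symbols for the 3 adventitia libraries and orange symbols for the 2 intima libraries. The row of endothelial genes not known in leukocytes leaves out only the 11 genes set apart. It shows the intima libraries at 4263 and 3164 CPM against at most 329.6 CPM in the adventitia. The macrophage sums of both groups overlap.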

How the data were processed

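Poly-A RNA libraries were made with the SMARTer Ultra Low kit, amplified over 12 cycles and sequenced as single reads of 50 bases, per the labels' protocols. The authors deposited, per the file headers, a read count, CPM and RPKM per Ensembl gene. The submitters' processing notes name GRCm38, STAR 2.0.4b, Subread and featureCounts 1.4.5; the annotation release and strand setting are not given in the sources used here. The deposited CPM and RPKM equalled values recomputed from the deposited counts (0 mismatches at a tolerance of 1e-06). In GENCODE M21, 15 of the 60 genes share exon bases with another gene, whose reads cannot be told apart without strand.

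Symbols came from a reference table (40254 of 41388 IDs). Counts were tested with edgeR 4.0.16 in R 4.3.3 (glmQLFit, glmQLFTest) over all 5 libraries after filterByExpr (minimum count 10, minimum total 15) with TMM, without covariates, and Benjamini-Hochberg adjustment over all tested genes at 0.05. The standard error is the difference over the square root of F. Ratios of pooled reads have exact conditional 95% intervals, which cover counting error only, since PCR reads are not independent molecules. An exact permutation test of 1 gene over these libraries cannot give a p below 0.1. On simulated counts with 13513 genes tested, 12% of genes with a 4-fold change were called, 36% of those with 16-fold, 52% of those with 64-fold and 86% of those with 256-fold, and 9 of 102 calls were false. The simulation gave both groups the same spread. In the data, the intima libraries differed at least 10-fold for 22.5% of tested genes and adventitia pairs for 5.43 to 6.38%. The simulated rates may therefore not hold here.

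The genes and lists were chosen with earlier results of these data known. Values are given for called genes, the 4 most abundant in each group, defining genes, the arterial role, and the 4 whose intima libraries differ most or least; genes named beyond these were chosen after their values were seen. Alternatives were other scalings, DESeq2 1.42.0, limma 3.58.1 voom, other filters, thinned counts, each library left out, and a block for the replicate number. Tables used Python 3.11.15, pandas 2.3.3, scipy 1.17.1 and matplotlib 3.10.9.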

Additional observations from a re-analysis of the deposited data

How the results depend on the processing

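The number of calls moved far more than the endothelial median. With edgeR 70 genes were called higher and 20 lower in the intima, 12 of the higher being endothelial genes. The counts of higher and lower calls were 46 and 29 under upper-quartile scaling, 59 and 34 using only the library size, 500 and 725 with DESeq2, 214 and 625 with limma voom, 135 and 261 where a whole group had to reach 1 CPM, 312 and 74 with no filter beyond 1 read, and 57 and 31 with counts thinned to the smallest library. Endothelial genes called higher numbered 9, 12, 27, 18, 16, 24 and 11 in the same order, and none was called lower under any of these or with a library left out. All of the 12 were kept except Bmx, Gja5 and Vwf with upper-quartile scaling and Esam with thinned counts; the cause was not tested. Leaving out each library in turn gave 9 to 229 genes higher, 1 to 160 lower and 1 to 13 endothelial genes higher, with the lone intima library assumed to vary like the adventitia. The cause was not tested. The median endothelial difference stayed between 2.60 and 3.75 under the alternatives run. The median of all tested genes ran from -1.86 with no filter beyond 1 read to 0.21 without adventitia replicate 3. Relative to that median, the endothelial genes stood 4.97 and 2.56 higher in these 2 settings. The median absolute log2 ratio between the intima libraries was 1.64.

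With the replicate number as a block, on the 4 libraries of replicates 1 and 2, 146 genes were higher, 43 lower and 15 endothelial genes higher, among them all 12. The numbers mark no shared animal or batch in the labels. Deviations from the group means of same-numbered libraries correlated at 0.035 and 0.0057. With 2 intima libraries the deviations mirror each other, so these values are not independent and cannot decide on pairing. The numbers were not taken as pairs because the labels mark none.

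Directions that reversed belonged to genes not called. Fli1 was at 0.23 without intima replicate 2, and at -1.58 without replicate 1. Klf2 was at 0.22 without a filter, 0.03 without adventitia replicate 2, 0.76 when intima replicate 2 was left out and -1.51 when intima replicate 1 was. Notch4 was at -1.09 with limma voom, -1.36 with the block, -5.26 without intima replicate 1 and 2.38 without intima replicate 2. Erg was at -0.55, -1.05, -7.85 and 3.28 under the same settings, and Mmrn1 at -3.25 without intima replicate 2. The cause was not tested. The smallest library, with 3941381 reads, sets the floor for the adventitia.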

Other observations

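Some markers of other blood cells lay mainly in intima replicate 2. The T cell receptor complex genes Cd3e and Cd3d, with the T cell kinase Lck, had 0 and 243, 1 and 173 and 1 and 206 reads in intima replicates 1 and 2. The platelet chemokine Ppbp had 3 and 4812 reads, the platelet integrin Itga2b 0 and 433 and the platelet glycoprotein Gp9 0 and 380. Cxcr2, the neutrophil chemokine receptor, had 0 and 365 reads. Other blood cell markers did not follow this: Cd4, which macrophages can also carry, had 1636 and 781 reads and Pf4 25196 and 5757. The B cell genes Cd79b and Ighm did not either, with 291 and 560 and 14054 and 17915 reads. Of the neutrophil genes, S100a8 had 1 and 21 reads in intima replicates 1 and 2, against 228, 207 and 212 in the adventitia. S100a9 had 0 and 473 reads, against 106, 66 and 229 in the adventitia. Ly6g and Retnlg had no read in the intima. All of these genes were picked after their values were seen, and their part in the endothelial levels of the same library was not tested.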
